A study of Mus musculus with 6 samples.

Results

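Alternatively activated macrophage genes were followed in whole lung: Retnla, Chil3, Chil4 and Rnase2a, which code for secreted proteins, the enzymes Arg1 and Il4i1, and the receptors Mrc1, Clec7a and Adora3. These 9 genes were chosen by name, with the counts of the same 6 libraries known, from the 25860 genes of the table. Their differences between the genotypes are therefore given as a description, with standard errors and without tests.

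RNA was sequenced from normal-looking lung of 6 mice at 12 months of age, with 1 library per mouse and no treatment. The mice were on a C57BL/6 background. Replicates 1, 2 and 3 were RAG1-/- and replicates 4, 5 and 6 were RAG1-/-Sgo1-/+. RAG1 is needed to rearrange antigen receptor genes, so mice of both groups should lack mature T and B cells. Sgo1 (shugoshin 1) protects the cohesion of sister chromatids at centromeres, and the RAG1-/-Sgo1-/+ mice carried 1 working copy of it in every tissue. Lungs with intact RAG1 were not analysed here.

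Macrophages exposed to interleukin 4 or interleukin 13 signal through the receptor chain Il4ra and the transcription factor Stat6 and take on a state called alternative activation. In mice this state is recognised by Arg1, which splits arginine into ornithine and urea, by the resistin-like protein Retnla and the chitinase-like protein Chil3, and by the mannose receptor Mrc1. It is known in lung from helminth infection, allergic inflammation and repair. Other cells make several of these proteins too: airway epithelium can express Retnla and Chil4, and resident alveolar macrophages express Chil3. In whole lung, more cells of a type and more RNA per cell cannot be told apart.

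Stretches upstream of 4 of the genes are shown because they carry matches to the letters read by Stat proteins. Sequences came from RefSeq on GRCm38.p6, which gave a promoter window of 250 bases before to 50 after the annotated start for 8 of the 9 genes (all but Arg1). Each line is 100 bases, 5′ to 3′ on the gene's strand, with the match in capitals. The stretches are Retnla at chr16:48842434-48842533 (plus strand, -175 to -76 from the start), Clec7a at chr6:129472841-129472940 (minus strand, -161 to -62), Chil3 at chr3:106167667-106167766 (minus strand, -202 to -103) and Chil4 at chr3:106219610-106219709 (minus strand, -230 to -131).
Retnla: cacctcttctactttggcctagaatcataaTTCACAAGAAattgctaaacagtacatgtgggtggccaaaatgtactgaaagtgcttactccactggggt
Clec7a: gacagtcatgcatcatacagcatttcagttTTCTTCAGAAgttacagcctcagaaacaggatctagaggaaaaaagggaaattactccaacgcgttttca
Chil3: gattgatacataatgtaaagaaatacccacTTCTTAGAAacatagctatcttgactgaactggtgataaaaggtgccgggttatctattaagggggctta
Chil4: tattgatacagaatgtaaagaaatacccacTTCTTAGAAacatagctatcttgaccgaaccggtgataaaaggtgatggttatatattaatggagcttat
The capitals of Retnla and Clec7a match TTCNNNNGAA, the spacing preferred by Stat6, at -145 to -136 and -131 to -122. Those of Chil3 and Chil4 match TTCNNNGAA, the spacing used by other Stat proteins, at -172 to -164 and -200 to -192. On either strand, 6.95% of all 32851 promoter windows held TTCNNNNGAA and 8.3% held TTCNNNGAA, against 2 of the 8 genes for each. The Chil3 and Chil4 stretches were identical at 90 of 99 aligned bases (90.9%), and the matched letters were the same in both. The TATA box letters TATAAA, on either strand, were found in the windows of Retnla, Chil3, Chil4 and Clec7a and in 13.6% of all windows. They lay at -30 to -25 in Retnla and at -31 to -26 in Chil4. In Chil3 they ran across the start (-3 to 2), and in Clec7a they lay after it on the other strand (42 to 47). The C/EBP letters TTGCNNAA were found for Retnla, Chil4 and Rnase2a (10.8% of all windows), the PU.1 letters GAGGAAG for Retnla, Mrc1, Il4i1 and Adora3 (13.6%), and the AP-1 letters TGANTCA for Adora3 (7.81%). None of these matches overlapped another, and a match describes the letters, not binding.

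Total counts per library lay between 3205822 and 9366774, and 3 counts, taken as the smallest amount detected, equal 0.320 to 0.936 CPM (counts on a common scale, per library total). Sgo1 had 6, 2 and 4 counts in RAG1-/- and 6, 0 and 2 in RAG1-/-Sgo1-/+, which cannot show whether a copy is lost, and Rag1 had 8 to 24 counts in every library. Libraries stood apart in 3 ways. RAG1-/- replicate 2 had 1853 counts of the immunoglobulin gene Igkc, against its label, where the other 5 libraries had 0 to 8. RAG1-/- replicate 1 had 7717 counts of Xist, against 4 to 8 elsewhere, and 2 counts of Ddx3y, against 342 to 1228 elsewhere. By these counts replicate 1 came from a female and the other 5 libraries from males, so sex was not balanced between the groups. RAG1-/-Sgo1-/+ replicate 6, the smallest library, had 432 of 17231 tested genes at least 2-fold above every other library (2.51%), against 50 to 161 genes for the others. Differences without replicates 2 and 6 are given for the 9 genes, and those without replicate 6 for the list genes that it sets apart.

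All 9 genes were highest in RAG1-/-Sgo1-/+ replicate 6. The share of all genes highest there was not computed, so that count has no background. Of the 9, 8 were at least 2-fold above every other library in replicate 6 (2.51% of all tested genes). The exception was Adora3, at 1.68-fold. Summed over the 9 genes, replicate 6 reached 10092 CPM, or 1.01% of its counts, and the other 5 libraries 484 to 943 CPM. Chil3 made up 60.3% of the summed counts in replicate 6. The other RAG1-/-Sgo1-/+ libraries, replicates 4 and 5, lay among or near the RAG1-/- libraries for most of the genes.

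**Figure D1:**
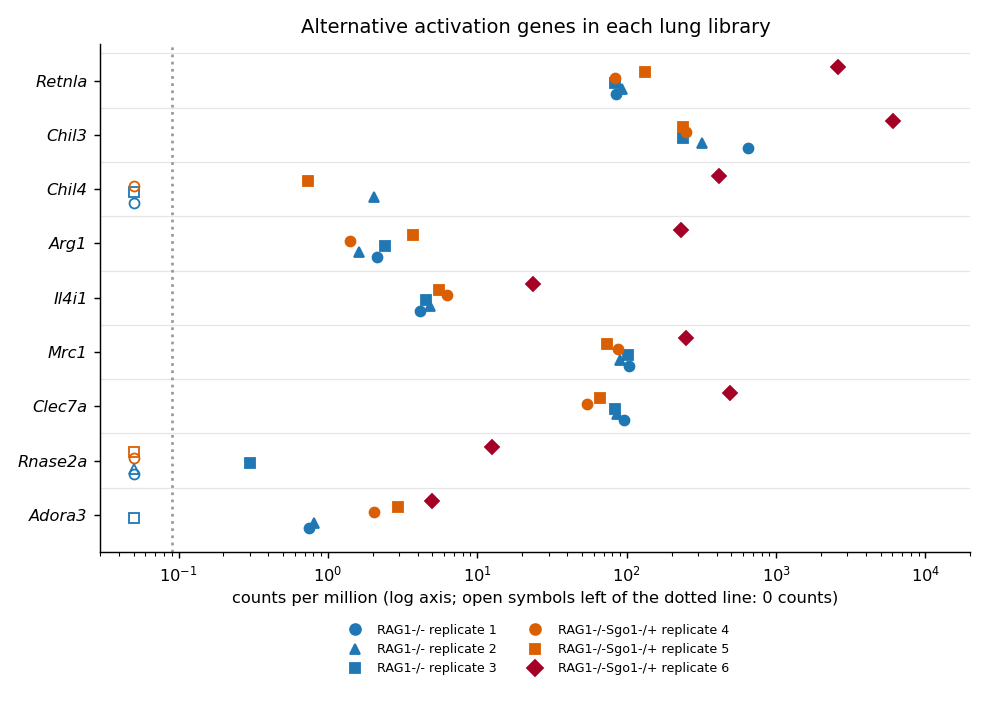
CPM of the 9 genes (rows) in each of the 6 libraries on a log axis, with 1 symbol per library and open symbols for 0 counts. The dark red diamond of RAG1-/-Sgo1-/+ replicate 6 is the rightmost symbol in every row, and replicates 4 and 5 both lie above the RAG1-/- libraries only for Il4i1 and Adora3.

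Of the secreted proteins, Retnla (also called Fizz1 or RELM-alpha, Entrez Gene 57262) was at 84.4, 93.1 and 83.8 CPM in RAG1-/- and at 83.6, 133 and 2580 CPM in RAG1-/-Sgo1-/+. The RAG1-/- libraries hardly differed, replicate 4 lay with them, replicate 5 was above them and replicate 6 was far above all. Its 8270 counts there were 27.5 times the pooled level of the other 5 libraries (95% interval 25.9 to 29.2). This interval, like those that follow, is an exact Clopper-Pearson interval on halved counts, since both mates of a read pair appear to have been counted, and it covers counting error only.

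Chil3 (Ym1, Entrez Gene 12655), a chitinase-like lectin without chitinase activity, was at 651, 321 and 238 CPM in RAG1-/- and at 249, 239 and 6083 CPM in RAG1-/-Sgo1-/+. Replicate 1 was the highest of the other 5 libraries, and replicates 4 and 5 lay at the low end of the RAG1-/- range. The 19501 counts of replicate 6 were 62.3% of all Chil3 counts in the 6 libraries, at 16.1 times the pooled level of the others (15.6 to 16.7).

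Chil4 (Ym2, Entrez Gene 104183), its near copy, had few or no counts in 5 libraries. It had 0, 10 and 0 counts in RAG1-/- and 0, 4 and 1335 counts in RAG1-/-Sgo1-/+. Of its counts 99% came from replicate 6, where it reached 416 CPM. The ratio of replicate 6 to the other libraries pooled was 930 (449 to 2321). The longest transcripts of Chil3 and Chil4 were identical at 1452 of 1538 aligned bases (94.4%), yet none of the 1390 windows of 150 bases, the length of a read, was shared without a mismatch. How reads with mismatches were placed is not given in the sources used here, so a part of the Chil4 counts may belong to Chil3. The 3 libraries with 0 counts of Chil4 had 1234 to 6096 counts of Chil3.

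Rnase2a (Ear11, Entrez Gene 93726) codes for a secreted ribonuclease of the eosinophil-associated family. It had 0, 0 and 2 counts in RAG1-/- and 0, 0 and 40 in RAG1-/-Sgo1-/+. Replicate 6 (12.5 CPM) was the only library above 3 counts, with a ratio to the others of 195 and a wide interval (31.2 to 8086).

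Of the enzymes, Arg1 (Entrez Gene 11846) was at 2.14, 1.62 and 2.42 CPM in RAG1-/- and at 1.41, 3.7 and 230 CPM in RAG1-/-Sgo1-/+. It lay between 7 and 20 counts in 5 libraries and at 737 in replicate 6, a ratio of 103 (72.4 to 150). Replicates 4 and 5 lay on either side of the RAG1-/- values.

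Il4i1 (Entrez Gene 14204), a secreted oxidase of aromatic amino acids that interleukin 4 induces, was at 4.16, 4.85 and 4.54 CPM in RAG1-/- and at 6.26, 5.56 and 23.7 CPM in RAG1-/-Sgo1-/+. The groups did not overlap. The table counts Il4i1b, a gene model that runs across Il4i1, apart from it, at 8.65, 8.89 and 6.2 CPM in RAG1-/- and 12.5, 10.2 and 28.4 CPM in RAG1-/-Sgo1-/+. RefSeq gives Il4i1b as a model of its own, and how reads were divided between the models is not given in the sources used here, so the level of Il4i1 is uncertain. Nup62, which shares the first part of Il4i1b, was at 42.7 to 55.4 CPM in all libraries and at 44.9 CPM in replicate 6.

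Of the receptors, Mrc1 (CD206, Entrez Gene 17533), which takes up glycoproteins with terminal mannose, was at 104, 89.7 and 102 CPM in RAG1-/- and at 87.1, 73.4 and 250 CPM in RAG1-/-Sgo1-/+. Replicates 4 and 5 were below all RAG1-/- libraries and replicate 6 above them. Its ratio of 2.68 (2.4 to 3) in replicate 6 was the smallest of the 9.

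Clec7a (dectin-1, Entrez Gene 56644), a receptor for fungal beta-glucan, showed the same arrangement. It was at 96.5, 85.5 and 83.4 CPM in RAG1-/- and at 54.5, 66.3 and 491 CPM in RAG1-/-Sgo1-/+. Replicate 6 was 6.13 times the pooled level of the others (5.6 to 6.71).

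Adora3 (Entrez Gene 11542), the adenosine A3 receptor, had few counts, namely 7, 4 and 0 in RAG1-/- and then 10, 16 and 16 in RAG1-/-Sgo1-/+. In CPM the RAG1-/- libraries were at 0.747, 0.808 and 0 and the RAG1-/-Sgo1-/+ libraries at 2.02, 2.96 and 4.99, without overlap. Replicates 4 and 5 lay above every RAG1-/- library here too, at 2.02 CPM or more against at most 0.808. Of its windows of 150 bases, 523 of 2221 (23.5%) are shared with Tmigd3, whose transcripts overlap it. The other 8 genes shared none with another gene of the GENCODE transcripts, which hold no gene named Il4i1b, so Il4i1 was not compared with that model. The 2 genes without overlap, Il4i1 and Adora3, compare with 1075 of all tested genes (6.24%) that were higher in every RAG1-/-Sgo1-/+ library than in any RAG1-/- library.

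To compare the genes with each other, CPM were divided by exon length. In the mean of the 5 libraries other than replicate 6, Chil3 (208 ± 109 CPM per kilobase, SD, n = 5) and Retnla (160 ± 35.4) came first, and they did not differ beyond their spread. Clec7a (29.3 ± 6.32) and Mrc1 (14.3 ± 1.94) followed and stood apart from each other and from the first pair. Il4i1 (1.24 ± 0.205) and Arg1 (1.01 ± 0.405) did not differ beyond their spread, nor did Adora3 (0.351 ± 0.315), Chil4 (0.196 ± 0.313) and Rnase2a (0.0877 ± 0.196).

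In replicate 6 the order changed. Retnla (4307 CPM per kilobase) came before Chil3 (3727), Chil4 moved from the 8th place to the 4th (148) behind Clec7a (186), and Arg1 took the 5th (103) above Mrc1 (39.3). Rnase2a (18.1) passed Il4i1 (5.81) and Adora3 (1.34). With 1 library this order has no spread. It also depends on the length used. With the longest transcript in place of all exons, an alternative chosen after the values were seen, Chil4 (271) came 3rd and Clec7a (216) 4th, and the other places in replicate 6 stayed as they were.

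**Figure D2:**
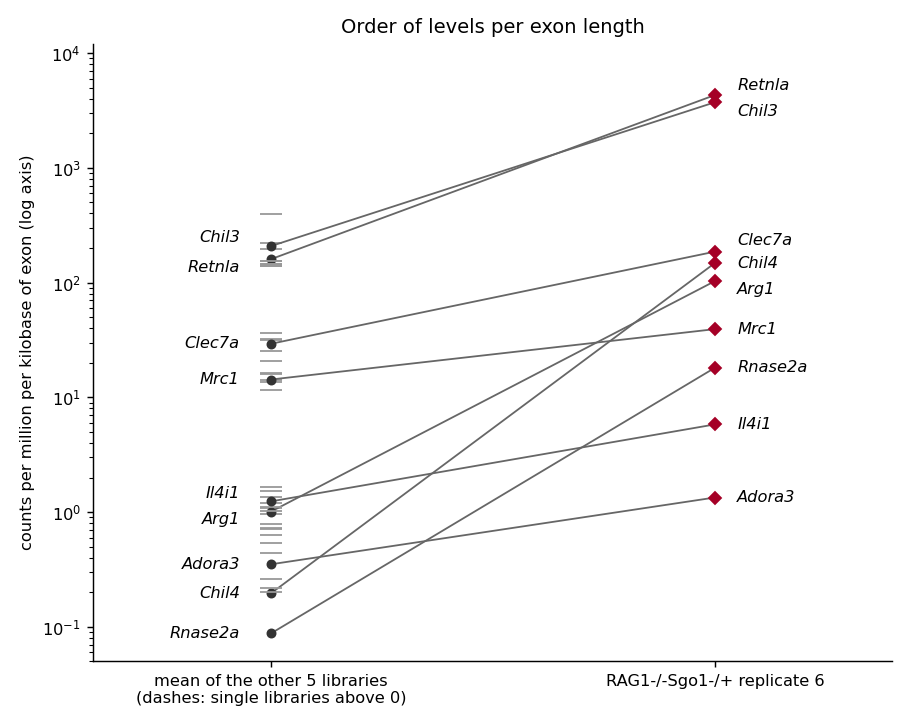
Levels in CPM per kilobase of exon on a log axis, as the mean of the 5 other libraries on the left (dashes are single libraries above 0) and in RAG1-/-Sgo1-/+ replicate 6 on the right, with a line for each gene. Every line goes up, and those of Retnla and Chil3 cross each other. The lines of Chil4, Arg1 and Rnase2a cross others too, Chil4 from the 8th to the 4th place (the 3rd with the longest transcript as the length).

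Between the genotypes, all 9 genes had higher mean levels in RAG1-/-Sgo1-/+ in the fit by edgeR. The log2 fold change was largest for Chil4 (8.05, SE 2.43), Arg1 (5.17, SE 1.57), Rnase2a (5.04, SE 2.0) and Retnla (3.42, SE 1.07). Adora3 (2.61, SE 0.85), Chil3 (2.44, SE 1.07), Il4i1 (1.35, SE 0.53), Clec7a (1.19, SE 0.68) and Mrc1 (0.46, SE 0.38) followed. The fitted values of Chil4 and Rnase2a rest on very few RAG1-/- counts and depend on the prior count. For Rnase2a the ratio of pooled counts was 30.9 (95% interval 4.94 to 1280). The median over the 9 genes was 2.61, against 0.03 over all tested genes. It is the value of Adora3, which has few counts too, and with a prior count of 2 the median was 2.44.

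The SD within RAG1-/-Sgo1-/+ exceeded the mean for 6 of the 9 genes. Retnla was at 932 ± 1427 CPM (SD, n = 3) against 87.1 ± 5.21 in RAG1-/-, and Arg1 at 78.3 ± 131 against 2.06 ± 0.408. Adora3 had the smallest spread relative to its mean, at 3.32 ± 1.52 against 0.518 ± 0.45 CPM.

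Without replicate 6 the common direction was gone. Of the 8 genes that then had enough counts for a fit, 4 were higher and 4 lower in RAG1-/-Sgo1-/+, with a median of 0.0058. Retnla went to 0.31 (SE 0.19), Arg1 to 0.31 (SE 0.61) and Il4i1 to 0.39 (SE 0.35). Clec7a (-0.55, SE 0.14), Mrc1 (-0.30, SE 0.14), Chil3 (-0.73, SE 0.35) and Chil4 (-0.59, SE 1.90) turned negative. Adora3 kept 2.23 (SE 0.95). Without RAG1-/- replicate 1, the library with Xist counts, all 9 stayed higher with a median of 3.08. Without RAG1-/- replicate 2, the library with immunoglobulin counts, all 9 stayed higher with a median of 2.92. The RAG1-/- libraries left had 0 counts of Chil4, and its mean of 139 CPM in RAG1-/-Sgo1-/+ was 740-fold the level of 3 counts over both of them. That floor takes no account of mates counted singly, so the bound is smaller if both mates were counted.

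**Figure D3:**
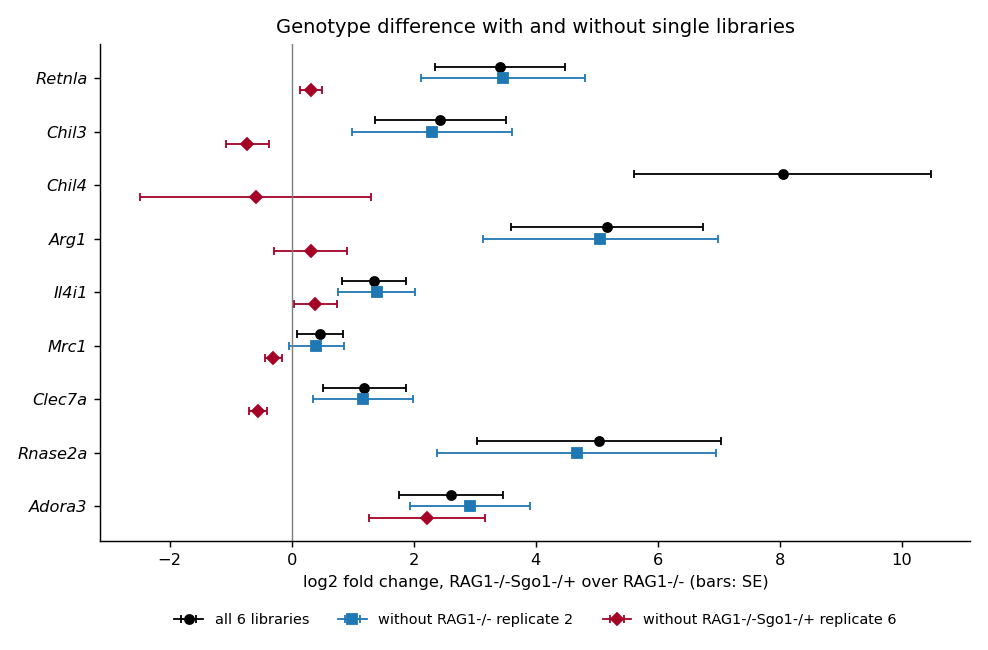
Log2 fold change of each gene, RAG1-/-Sgo1-/+ over RAG1-/-, with its SE as the bar, in all 6 libraries (black), without RAG1-/- replicate 2 (blue) and without RAG1-/-Sgo1-/+ replicate 6 (red). The red points lie near or below 0 except for Adora3 at 2.23, and 2 values are not drawn, Chil4 without replicate 2 (0 counts in RAG1-/-) and Rnase2a without replicate 6 (too few counts).

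Over all genes, 0 of 17231 passed edgeR's quasi-likelihood test at a Benjamini-Hochberg adjusted p under 0.05 with at least a 2-fold difference (0%), and the smallest adjusted p was 0.832. DESeq2 called 1 gene, Awat1, which is no member of any list here. At an unadjusted p under 0.05, 976 genes passed, 542 higher (3.15%) and 434 lower (2.52%) in RAG1-/-Sgo1-/+. Without replicate 6, 429 of 17049 genes were higher at that p (2.52%). In what follows, counts of genes at an unadjusted p under 0.05 are set against these shares, since no gene below passed the adjusted threshold.

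Outside the genes around Clec7a, few close relatives of the 9 genes stood out in replicate 6. Among chitinase-like genes, Chil1 (BRP-39 or YKL-40), a lectin of epithelium and macrophages, was at 883, 663 and 759 CPM in RAG1-/- and at 940, 735 and 1363 CPM in RAG1-/-Sgo1-/+ (log2 fold change 0.40, unadjusted p = 0.0924). Chia1, the acidic chitinase that does cut chitin, was at 128 to 165 CPM and at 134 CPM in replicate 6. Chil5 and Chil6 had at most 4 counts in any library, Chit1 had 0 in all, and Chid1, Ctbs and Ovgp1 were not above the range of the other libraries in replicate 6. None of the 5 tested relatives reached an unadjusted p under 0.05.

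Of the resistin family, Retn, the adipocyte hormone resistin, was lower in RAG1-/-Sgo1-/+ (log2 fold change -2.80, unadjusted p = 0.0153), with 186 counts in RAG1-/- replicate 1 and 2 to 12 in the other libraries. Retnlg, expressed in neutrophils, had 70, 28 and 22 counts in RAG1-/- and 12, 12 and 16 in RAG1-/-Sgo1-/+. Retnlb, a product of goblet cells in gut and inflamed airway, had 4 counts in replicate 6 and 0 in the other 5 libraries.

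In the ribonuclease A family only Ear6 resembled Rnase2a, with 2 counts in replicate 1, 22 in replicate 6 and 0 in the others (log2 fold change 4.26, unadjusted p = 0.0495, ratio to the other libraries 107 with an interval of 15.6 to 4619). Ear1 was at 26.7 to 29.5 CPM in 5 libraries and at 20.6 CPM in replicate 6, and Ear2 at 55.4 to 78.3 and at 99.2 CPM. Rnase2b and Ear10 had at most 10 counts. Rnase4, Rnase6, Ang and the ribonuclease inhibitor Rnh1 were measured too, and none of these reached an unadjusted p under 0.05. Ang2, Ang6, Ear14 and Rnase1 had 0 counts in all libraries, and Ang4 and Rnase10 had 2 counts in 1 library each.

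The other mannose receptor genes, Mrc2 (89.7 to 116 CPM), Pla2r1 (16.5 to 27.1 CPM) and Ly75 (4.24 to 11.2 CPM), had log2 fold changes of -0.16, 0.06 and 0.42. The other adenosine receptors, Adora1, Adora2a and Adora2b, were at -0.14, -0.21 and 0.14, and none of 14 tested genes of adenosine metabolism and sensing reached an unadjusted p under 0.05. Of 18 tested genes around Clec7a, which include its adaptor Card9 and its kinase Syk, 1 passed, Clec2d, lower at -0.42 (unadjusted p = 0.0292). In replicate 6, 3 of the 18 were at least 2-fold above every other library (2.51% of all genes), namely Clec4d, Olr1 and Syk. Clec4d was at 9.05 CPM there and at 1.48 to 3.2 CPM in the others, and Olr1 at 42.7 and 5.19 to 16 CPM. Syk was at 75.8 CPM in replicate 6 and at 22.2 to 37.6 CPM in the other libraries.

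On chromosome 3, Adora3, Chil3 and Chil4 lie in 1 stretch with other chitinase-like genes, and 11 of the 14 genes annotated from Adora3 to Chil4 were in the table. Most of the genes between them were not raised in replicate 6. Atp5pb (83.9 CPM in replicate 6, 76.8 to 105 in the others), Wdr77 (54.6 and 56.9 to 76.1), Pifo (20.9 and 15.9 to 24.8) and the pseudogene Gm4540 (52.7 and 45 to 63.1) lay within or just below the range of the other libraries. I830077J02Rik (2.18 and 0.37 to 1.28 CPM) and Chil5 (0.624 and 0 to 0.556 CPM) were highest in replicate 6, but at 7 and 2 counts there. Values at least 2-fold above every other library in replicate 6 were those of Chil3 and Chil4, next to Chia1 at 134 CPM.

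**Figure D4:**
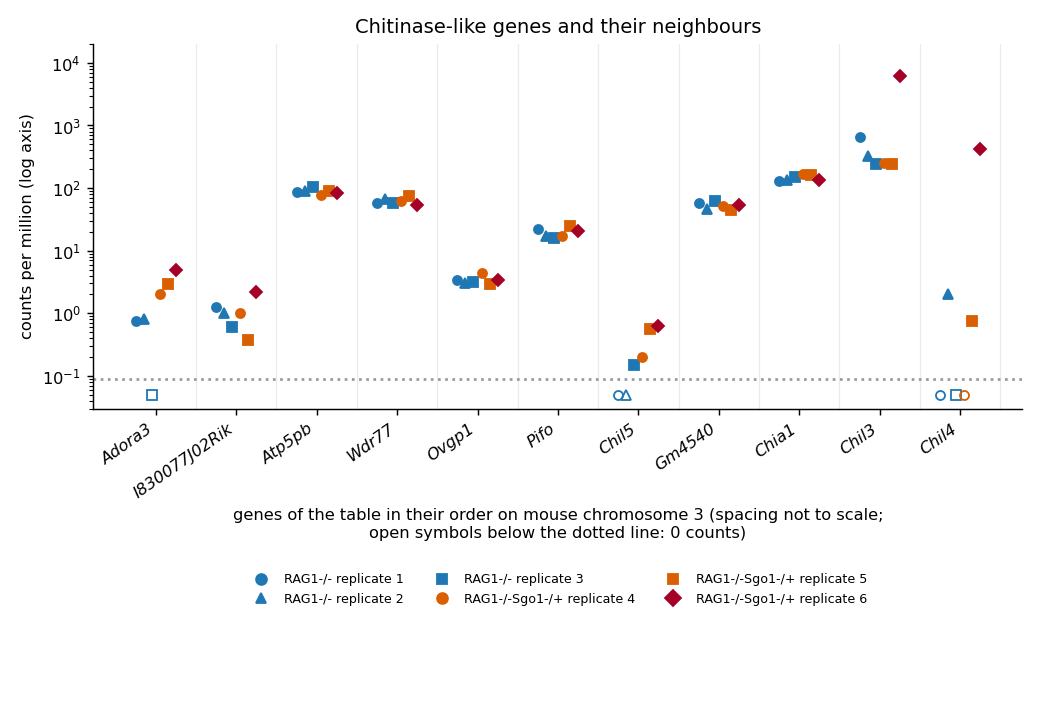
CPM on a log axis of 11 genes in their order on chromosome 3, from Adora3 to Chil4, with 1 symbol per library and open symbols for 0 counts. The dark red diamond of replicate 6 lies within or near the other libraries from I830077J02Rik to Chia1, slightly above them for I830077J02Rik and Chil5 at few counts, and far above them at Chil3 and Chil4.

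Upstream of these genes, the ligands had few or no counts. Il4 had 4, 2 and 1 counts in RAG1-/- and 0 in each RAG1-/-Sgo1-/+ library, where 3 counts equal 0.606, 0.556 and 0.936 CPM. Il13, Il25 and Il9 had 0 counts in all 6 libraries. Il5 had at most 2 counts. The alarmin Il33, released by damaged epithelium, was at 188, 112 and 179 CPM in RAG1-/- and at 213, 122 and 221 CPM in RAG1-/-Sgo1-/+ (log2 fold change 0.21, unadjusted p = 0.411), and Tslp had its lowest level, 2.5 CPM, in replicate 6. The receptor chain Il4ra was at 77.4 to 103 CPM in 5 libraries and at 110 CPM in replicate 6 (log2 fold change -0.0016). Of 19 tested ligands and receptors, 2 were higher at an unadjusted p under 0.05 (Il6ra at 0.52, unadjusted p = 0.0115, and Tgfb1 at 0.64, unadjusted p = 0.0197) and 0 lower. Without replicate 6 these values were 0.50 and 0.48. In replicate 6, 1 of the 19 was at least 2-fold above every other library (2.51% of all genes). It was the receptor chain Csf2rb, at 90.5 CPM there and at 19.2 to 38.2 CPM in the others. The list summed to 760 to 903 CPM in RAG1-/- and to 895, 822 and 1150 CPM in RAG1-/-Sgo1-/+.

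Of 34 tested signalling genes, 3 were higher and 0 lower at an unadjusted p under 0.05, against 3.15% and 2.52% of all genes. They were the kinase Tyk2 (log2 fold change 0.31, unadjusted p = 0.0319), the histone demethylase Kdm6b (0.29, unadjusted p = 0.0419) and the feedback inhibitor Socs3 (0.43, unadjusted p = 0.0497). Stat6 itself was at 132 to 139 CPM in RAG1-/- and at 132, 159 and 154 CPM in RAG1-/-Sgo1-/+. The median log2 fold change of this list was 0.19, and 0 of its genes were 2-fold above every other library in replicate 6. Without that library Tyk2 was at 0.33, Kdm6b at 0.25 and Socs3 at 0.17.

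Among 45 tested further genes of alternative activation, 10 were higher (3.15% of all genes) and 0 lower, and 16 were at least 2-fold above every other library in replicate 6 (2.51%). The list median was 0.49 with all libraries and -0.07 without replicate 6. Without that library, 6 of the 45 were higher at an unadjusted p under 0.05 (2.52% of all genes) and 2 were lower. Mmp12, the macrophage elastase, was at 5.12, 4.44 and 3.93 CPM in RAG1-/- and at 5.25, 13 and 594 CPM in RAG1-/-Sgo1-/+ (log2 fold change 5.47, unadjusted p = 0.00488). Spp1 (osteopontin) was at 194 to 220 CPM in RAG1-/- and at 142, 140 and 3541 CPM in RAG1-/-Sgo1-/+ (2.61, unadjusted p = 0.0306), and the lysosomal glycoprotein Gpnmb at 15.4 to 35.4 CPM and at 17.6, 15.2 and 553 CPM (3.04, unadjusted p = 0.0254). The integrin chain Itgax (CD11c) reached 203 CPM in replicate 6, from 25.5 to 48.5 CPM in the others (1.62, unadjusted p = 0.0154). Without replicate 6 the log2 fold change went to 1.01 for Mmp12 and 0.44 for Itgax, and it turned negative for Spp1 (-0.56) and Gpnmb (-0.52).

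The chemokine Ccl22 differed from these in that replicates 5 and 6 were alike, at 18.2 and 20.3 CPM, above the 6.06 to 9.7 CPM of the other 4 libraries (log2 fold change 1.03, unadjusted p = 0.00756, and 0.84 without replicate 6). Markers of the state that did not move with the 9 genes included Clec10a (3.12 CPM in replicate 6, 2.83 to 7.41 in the others), Cd163 (5.93 and 2.59 to 9.23) and Ccl11 (2.5 and 2.96 to 4.84).

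Of 26 tested genes of classical activation, the state opposed to it, 2 were higher at an unadjusted p under 0.05, Cd80 (log2 fold change 2.02, unadjusted p = 0.00544) and Socs3, and 0 lower. Cd80, a costimulatory ligand, was at 0.808 to 1.28 CPM in RAG1-/- and at 4.44, 2.22 and 6.86 CPM in RAG1-/-Sgo1-/+, and at a log2 fold change of 1.62 without replicate 6. In replicate 6, 3 of the 26 were at least 2-fold above every other library (2.51% of all genes), each at few counts. They were Acod1, which makes itaconate, with 22 counts against 0 to 4, the cytokine Il6 with 3.12 CPM (10 counts) against 0 to 1.21, and the cytokine Tnf with 5.61 CPM (18 counts) against 0.808 to 2.22. Nos2, the nitric oxide synthase that competes with Arg1 for arginine, had 6 to 13 counts in every library, and Arg2, the mitochondrial arginase, was at 6.48 to 13.7 CPM and at 13.1 CPM in replicate 6. None of 25 tested genes of arginine metabolism other than Arg1 reached an unadjusted p under 0.05. Of 10 tested genes of amino-acid oxidation, 1 was higher, Il4i1b (1.07, unadjusted p = 0.0174). In replicate 6, 2 of the 10 were at least 2-fold above every other library (2.51% of all genes), Il4i1b and Kynu. Kynu was at 6.55 CPM there and at 1.36 to 3.2 CPM in the others.

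General macrophage markers were present in all libraries, as the name of the genes requires. The summed level of 20 of them was 11075 CPM in replicate 6, within the 8398 to 11116 CPM of the other libraries, but Lyz2, at 8400 CPM in replicate 6, made up most of that sum. The 19 markers other than Lyz2 summed to 1082, 997 and 945 CPM in RAG1-/- and to 942, 1165 and 2675 CPM in RAG1-/-Sgo1-/+. In replicate 6, 17 of the 19 were highest, but the share of all genes highest there was not computed, so this count has no background. Leaving out Lyz2 was chosen after the values were seen. At an unadjusted p under 0.05, 3 of the 20 were higher (Cd68 at 1.50, unadjusted p = 0.0306, Ctss at 1.48, unadjusted p = 0.038, and Fcgr3 at 0.85, unadjusted p = 0.0477) and 0 lower. In replicate 6, 4 of the 20 were at least 2-fold above every other library (2.51% of all genes). The growth factor receptor Csf1r was at 73 CPM in replicate 6 and at 74.6 to 96.6 CPM in the others, Adgre1 (F4/80) at 21.2 and 11.7 to 17.6 CPM, and Cd68 at 63 and 6.06 to 16.2 CPM. Ctss, a lysosomal protease, was at 161, 129 and 104 CPM in RAG1-/- and at 106, 164 and 834 CPM in RAG1-/-Sgo1-/+. The receptor Fcgr3 was at 31.6, 23.8 and 29.1 CPM and at 27.9, 35.4 and 92.3 CPM. Replicate 6 alone was set apart for both. Without it the log2 fold change was 0.04 for Ctss, 0.16 for Fcgr3 and 0.40 for Cd68. The part of macrophage number in the levels of the 9 genes was not tested.

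Of 19 markers of resident alveolar macrophages, Chil3 left out, 1 was higher (Itgax) and 2 lower (Siglecf at -0.85, unadjusted p = 0.0114, and Cidec at -1.08, unadjusted p = 0.0459). In replicate 6, 3 of them (Atp6v0d2, Itgax and Olr1) were at least 2-fold above every other library. Without it 1 was higher at that p (Flt1) and 5 were lower (Car4, Fabp4, Lpl, Marco and Siglecf), and the list median went from -0.18 to -0.49. Cidec, Fabp4 and Lpl were highest in RAG1-/- replicate 1. Cidec was at 67.7 CPM there and at 14.3 to 18.6 CPM in the others. Fabp4 was at 240 and 17.4 to 75.2 CPM, and Lpl at 381 and 167 to 273 CPM. Car4, Marco and Siglecf were not highest in replicate 1. Siglecf was at 9.08 to 11.3 CPM in RAG1-/- and at 4.44, 5.93 and 6.24 CPM in RAG1-/-Sgo1-/+. The list summed to 919 to 1609 CPM in RAG1-/- and to 966, 886 and 1798 CPM in RAG1-/-Sgo1-/+. Of 19 tested markers of interstitial macrophages and monocytes, 1 was higher, P2ry6 (0.62, unadjusted p = 0.0391), and 1 lower, Nr4a1 (-1.65, unadjusted p = 0.00229). They summed to 1138 to 1458 CPM in RAG1-/- and 1345 CPM in replicate 6. In replicate 6, 1 of the 19 was at least 2-fold above every other library (2.51% of all genes). It was Ms4a7, at 8.73 CPM there and at 1.49 to 4.04 CPM in the others.

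Defining markers of eosinophils, which also express ribonucleases of this family, were at or near 0. Epx and Ccr3 had 0 counts in all libraries, Prg2 had 4 counts in RAG1-/- replicate 2 only, and the list of 11 genes summed to 103 to 128 CPM in RAG1-/- and to 104, 116 and 151 CPM in RAG1-/-Sgo1-/+. Of 5 tested, 1 was higher at an unadjusted p under 0.05 (Ear6) and 1 lower (Siglecf). Ear6 alone was at least 2-fold above every other library in replicate 6 (2.51% of all genes). Alox15 (18.4 CPM and 5.25 to 11.7 in the others) and Ear2 were highest there too, while Ear1 and Siglecf were not. Markers of group 2 innate lymphoid cells, a source of interleukin 13, summed to 65 to 135 CPM in RAG1-/- and 126 CPM in replicate 6, with 0 of 11 tested genes past an unadjusted p of 0.05. Neutrophil markers split, with S100a8 (-1.23, unadjusted p = 0.0122), S100a9 (-1.43, unadjusted p = 0.00215) and Csf3r (-0.65, unadjusted p = 0.0369) lower and Lcn2 (1.29, unadjusted p = 0.0481, and 0.13 without replicate 6), which epithelium makes too, at 413 CPM in replicate 6 against 55.4 to 115 CPM. Ly6g, Elane and Mpo had 0 counts. The part of these cells in the levels of the 9 genes was not tested.

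Markers of other cells were read as well. Mast cell and basophil markers (0 of 8 tested past an unadjusted p of 0.05) summed to 353 CPM in replicate 6 and 350 to 404 CPM in the others. Dendritic cell markers had 1 of 12 higher (Ccl22) and summed to 121 CPM in replicate 6. Lymphocyte markers, Ms4a1 and Gzma among those lower at that p, summed to 50.1 to 112 CPM in RAG1-/- and to 36.6, 34.1 and 34.6 CPM in RAG1-/-Sgo1-/+. Ms4a1 had counts in RAG1-/- replicate 2 alone. Markers of alveolar epithelium summed to 24828 CPM in replicate 6 and 28350 to 36422 CPM in the others, with 0 of 10 past that p.

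Of 10 airway epithelium markers, 3 were higher at an unadjusted p under 0.05, and these were Clca1, a goblet cell protein (5.20, unadjusted p = 0.0326), the mucin Muc5ac (3.02, unadjusted p = 0.022) and Foxj1, the factor of ciliated cells (0.58, unadjusted p = 0.0346). Clca1 was at 2344 CPM in replicate 6 and at 1.62 to 48.9 CPM in the others, and Muc5ac at 50.2 and 1.21 to 2.67 CPM. Without replicate 6 the log2 fold change of Clca1 was -3.31 and that of Muc5ac -0.06, while Foxj1 was at 0.59. In replicate 6, 3 of the 10 were at least 2-fold above every other library (2.51% of all genes), Clca1, Muc5ac and Bpifb1. Bpifb1 was at 296 CPM there and at 26.7 to 118 CPM in the others. Of the other secretory genes, the mucin Muc5b was at 319 CPM in replicate 6 and at 64.0 to 229 CPM in the others (unadjusted p = 0.234), and Scgb3a1 at 1053 and 174 to 814 CPM (unadjusted p = 0.71). Bpifa1 (559 and 445 to 1691 CPM) and Scgb3a2 (1232 and 1181 to 1863 CPM) lay within the range of the others. The club cell protein Scgb1a1 was at 58556 CPM in replicate 6, within the 47501 to 72841 CPM of the others, and the list summed to 68318 CPM against 54068 to 81405 CPM. The part of these cells in the levels of the 9 genes was not tested.

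**Figure D5:**
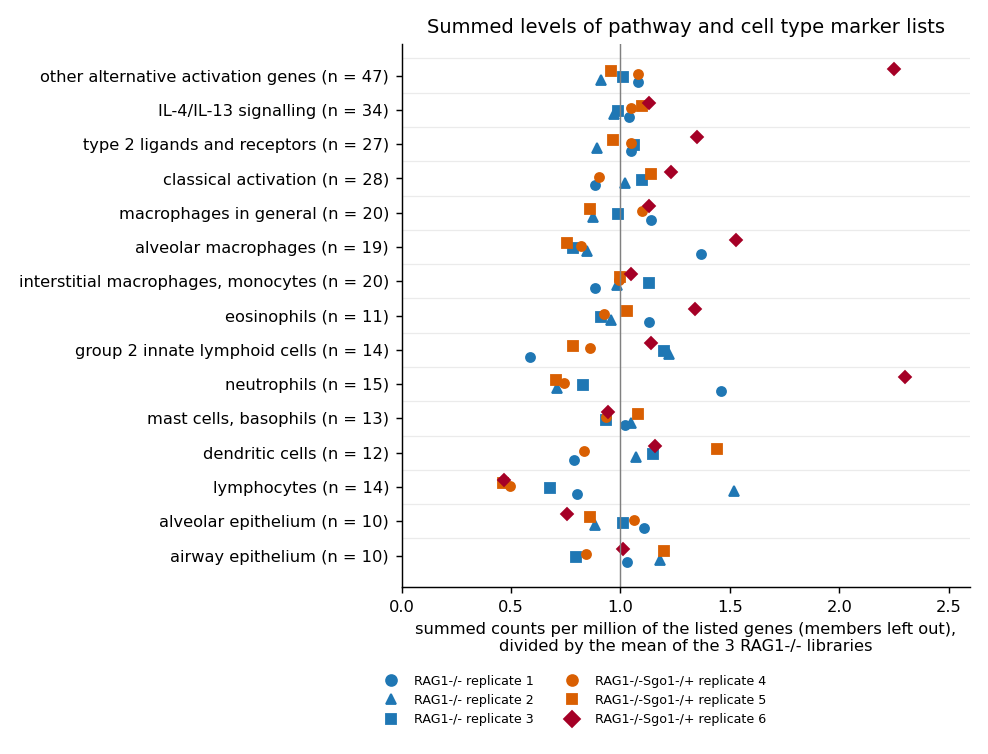
Summed CPM of 15 lists of pathway and cell type marker genes (rows, number of genes in parentheses, the 9 members left out) in each library, divided by the mean of the 3 RAG1-/- libraries. Replicate 6 stands at 2.25 for the other alternative activation genes and 2.3 for the neutrophil list, the latter through Lcn2, and at 1.13 for IL-4/IL-13 signalling. It stands at 1.13 for the general macrophage markers too, a sum set mainly by Lyz2, and without Lyz2 the ratio is 2.65.

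Over 23 lists with 315 tested genes that are not among the 9, 26 were higher (8.25%, against 3.15% of all genes) and 11 lower (3.49%, against 2.52%) at an unadjusted p under 0.05. These lists were chosen with earlier results of the same libraries known.

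The genes most like the 9 were found from the median of their centred log2(CPM + 1) values, which ran from -0.92 to -0.45 in replicates 1 to 5 and stood at 3.06 in replicate 6. Among 13793 other genes with at least 100 counts, the 10 with the smallest mean absolute difference from it over the 6 libraries were Muc5ac (0.16), the acute-phase gene Saa3 (0.24), the lipid receptor Trem2 (0.24), Cd177 (0.26), Spp1 (0.27), the cysteine protease Ctsk (0.29), Cdhr1 (0.33), Ctss (0.34), Lhfpl2 (0.35) and the chemokine Ccl9 (0.37). Saa3 was at 2.42 to 5.15 CPM in 5 libraries and at 49.3 CPM in replicate 6. Trem2 was at 4.54 to 7.88 and 62.4 CPM, and Ctsk at 39.5 to 67.3 and 441 CPM. Since 1 library sets this profile, the likeness is a description of replicate 6.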

How the data were processed

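The authors sequenced lung RNA as read pairs and deposited counts of reads per gene, whole numbers without normalization, on mouse build 37.2. BWA and edgeR are named in the submitters' processing notes, without versions. How reads that map to several places were treated is not given in the sources used here. Of counts from 1 to 20, 80.5% were even. A deposited list of the authors' comparison (fold changes and p-values) was not used. Of 25860 genes, 24048 (93.0%) received a symbol through their Entrez Gene ID.

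The 17231 genes with at least 10 counts in all entered the quasi-likelihood test in edgeR 4.0.16 (R 4.3.3). Library size was the total count and the prior count 0.125. SE were derived from the F statistic as the size of the log2 fold change over root F. Depth was 3205822 to 9366774 counts, and floors and intervals cover counting error only. Nothing beyond 1 library per mouse, and the sex read from Xist and Ddx3y, is known of the replicates. The test was checked on simulated counts of these 17231 genes with 200 changed. The simulated counts held no library set apart as replicate 6 was, so the check does not cover such a library. Transcripts came from GENCODE M21 (GRCm38), read with biopython 1.88, and exon lengths are the union of exons.

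The members and lists were chosen with earlier results of these data known. Named in the text are the 9 members, their families, at most 5 genes per list with the lowest unadjusted p under 0.05, defining markers and the 10 genes nearest the members' profile. Awat1, Syk, Clec4d, Tslp, Csf2rb, Clec10a, Cd163, Ccl11, Acod1, Il6, Tnf, Kynu, Atp6v0d2, Olr1, Car4, Fabp4, Flt1, Lpl, Marco, Ms4a7, Alox15, Muc5b, Scgb3a1, Scgb3a2, Bpifa1 and Bpifb1 were named after their values were seen. A result on 1 lymphocyte marker is not reported here. Alternatives were TMM factors, DESeq2 1.42.0 and its size factors, no filter, filterByExpr, thinning to 3205822 counts, a prior count of 2, group mean ratios, and each library left out.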

Additional observations from a re-analysis of the deposited data

How the results depend on the processing

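With the 6 libraries kept, the 9 genes were read under TMM factors, DESeq2 and its size factors, thinning, a prior count of 2 and group mean ratios. All 9 were higher in RAG1-/-Sgo1-/+ under each of these, and 0 of 54 such values moved by more than its SE. Values of the 9 genes under no filter and filterByExpr were not compared. Leaving out single libraries gave 4 to 9 genes higher and a median log2 fold change of 0.0058 to 3.08, the lowest values without replicate 6. Without that library Chil3 (-0.73), Chil4 (-0.59), Mrc1 (-0.30) and Clec7a (-0.55) turned negative. Over the 6 settings Chil3 reached 2.97, Chil4 12.66 (without replicate 2, where it rests on the prior count because RAG1-/- is left with 0 counts), Mrc1 0.77 and Clec7a 1.65. Rnase2a was at 7.45 without replicate 3, where RAG1-/- is left with 0 counts and the value rests on the prior count, and at 3.32 with a prior count of 2. Without replicate 6 it could not be fitted for want of counts. Over all genes, DESeq2 called 1 (Awat1) at the adjusted threshold, and leaving out single libraries 0 to 1 (H2-K1, without replicate 5). At an unadjusted p under 0.05 the 976 genes became 571 to 1420 with single libraries left out (593 without replicate 2 and 571 without replicate 3), and the 37 list genes became 25 to 59 (59 without replicate 4). Genes whose groups did not overlap went from 2030 to 3142 to 4455, since fewer libraries overlap less often. No paired analysis was possible because the groups share no replicate numbers. Chil4, Rnase2a and Adora3 had 3 counts or fewer in at least 1 library, and at this depth their order in single libraries is not resolved. Added after the values were seen were the length of the longest transcript and the macrophage sum without Lyz2.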
